A study of Mus musculus with 20 samples.

Results

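The OR1 and OR2 tumours (MDA594OR1 and MDA594OR2) are olaparib-resistant relatives of MDA594, a mouse breast cancer grown as an allograft in mice, in a study of PARP inhibitor resistance. They comprised 12 of the 20 samples of the series, chosen by their labels: 7 OR1 libraries (3 untreated, 4 treated with olaparib) and 5 OR2 libraries (2 untreated, 3 treated). RNA was measured by bulk sequencing of stranded mRNA libraries. The question was which genes separated the resistant lines from each other once treatment was taken into account, and 7 MDA594 libraries (4 untreated, 3 treated) show where the line without the OR suffix lay for those genes. All 3 lines carry the MDA594 name. The titles of treated tumours give 100 with no unit, and the genotype, strain and age of tumours and hosts are not given in the sources used here. The last code of each title was taken as the host animal, so the OR1 libraries came from 5 hosts and the OR2 libraries from 4, and both untreated OR2 libraries share 1 host. Nothing in the labels says that the tumours of a line arose separately, so each line may be 1 derivation, and each p-value reflects library-to-library spread only.

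Olaparib traps and inhibits PARP enzymes, which repair single-strand DNA breaks, and it kills cells that cannot repair the resulting lesions by homologous recombination. Resistant tumours of the same origin can differ in which genes they keep on or off. At imprinted genes only the copy from one parent is active, and that state is passed on at cell division through DNA methylation. Many lie in clusters in which a long non-coding RNA made from one parental copy silences neighbours on that copy.

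Recovered reads per library ran from 36.83 M to 87.69 M in OR1 and from 74.89 M to 115.63 M in OR2. Levels are in log2 CPM, the log2 of read counts scaled to library size, as deposited, and differences below are on that scale unless a ratio is named. Epithelial keratins were present in every library, as the breast tumour label has it: Krt8 lay between 7.56 and 9.59 and Krt18 between 7.96 and 9.99 log2 CPM in the 12 libraries. Of 16411 genes in the table, 15926 were tested. Each title also carries a number of unstated meaning, and no number occurs in both resistant lines, so an effect of that number and of the line cannot be told apart.

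One OR2 library stood apart from the rest of its line. It is a treated tumour and the only OR2 sample with a library name that begins with ABA445, while those of the other 4 begin with ABA450. Its title begins with MDA594OR2_1303 and theirs with MDA594OR2_1356. Its root mean square difference over all tested genes from the 4 other OR2 libraries was 0.91 to 1.06 log2 units, with a median of 0.96, and from the 7 OR1 libraries 0.80 to 0.91, with a median of 0.85. The 4 ABA450 OR2 libraries differed from each other by 0.64 to 0.97, with a median of 0.87. From the OR1 libraries they differed by 0.67 to 1.08, with a median of 0.90, so these ranges overlap. Genes were counted for the ABA445 OR2 tumour only, if at 1 log2 CPM or more in it or in all 4 others. In 21 of them that tumour lay at least 3 log2 units outside the range of the other OR2 libraries. The imprinted zinc-finger gene Peg3 was at -0.05 there and at 8.15 to 8.33 in the others, Usp29 was at -4.19 against 2.39 to 3.65, and Igf2r was at 9.05 against 3.78 to 4.85. The homeobox genes Hoxa9 and Hoxa10 were at 0.67 and 0.52 against lows of 4.93 and 4.01, and the forkhead gene Foxi1 was at 4.24 against a high of -3.33. Values that changed by a large factor when the ABA445 OR2 tumour was left out are given both ways below.

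Over all 12 libraries 31 genes differed between the lines (0.195% of the genes tested), 24 of them higher in OR1 (0.151%) and 7 higher in OR2 (0.044%; limma with treatment as a covariate and host as a random block, Benjamini-Hochberg adjusted over all tested genes, threshold 0.05). The 24 included transcripts of the imprinted Snrpn neighbourhood, Kcnq1ot1, Igf2 and Igf2r, beside genes not in the imprinted list such as Gm44832 and Zcchc12, which differed by 6.08 and 5.44. The 7 were the tight-junction gene Cldn2, the keratin Krt7, the mucin Muc1, Scml4, Mrpl48-ps, the transcription factor Ets2 and Hlcs, which attaches biotin to carboxylases. In 29 of the 31 the OR1 and OR2 libraries did not overlap, beside 178 such genes among all tested (1.12%). The exceptions were Krt7 and the collagen gene Col9a3. The median difference over all genes was 0.012, and 1511 genes had an unadjusted p under 0.05 (9.49%).

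**Figure D1:**
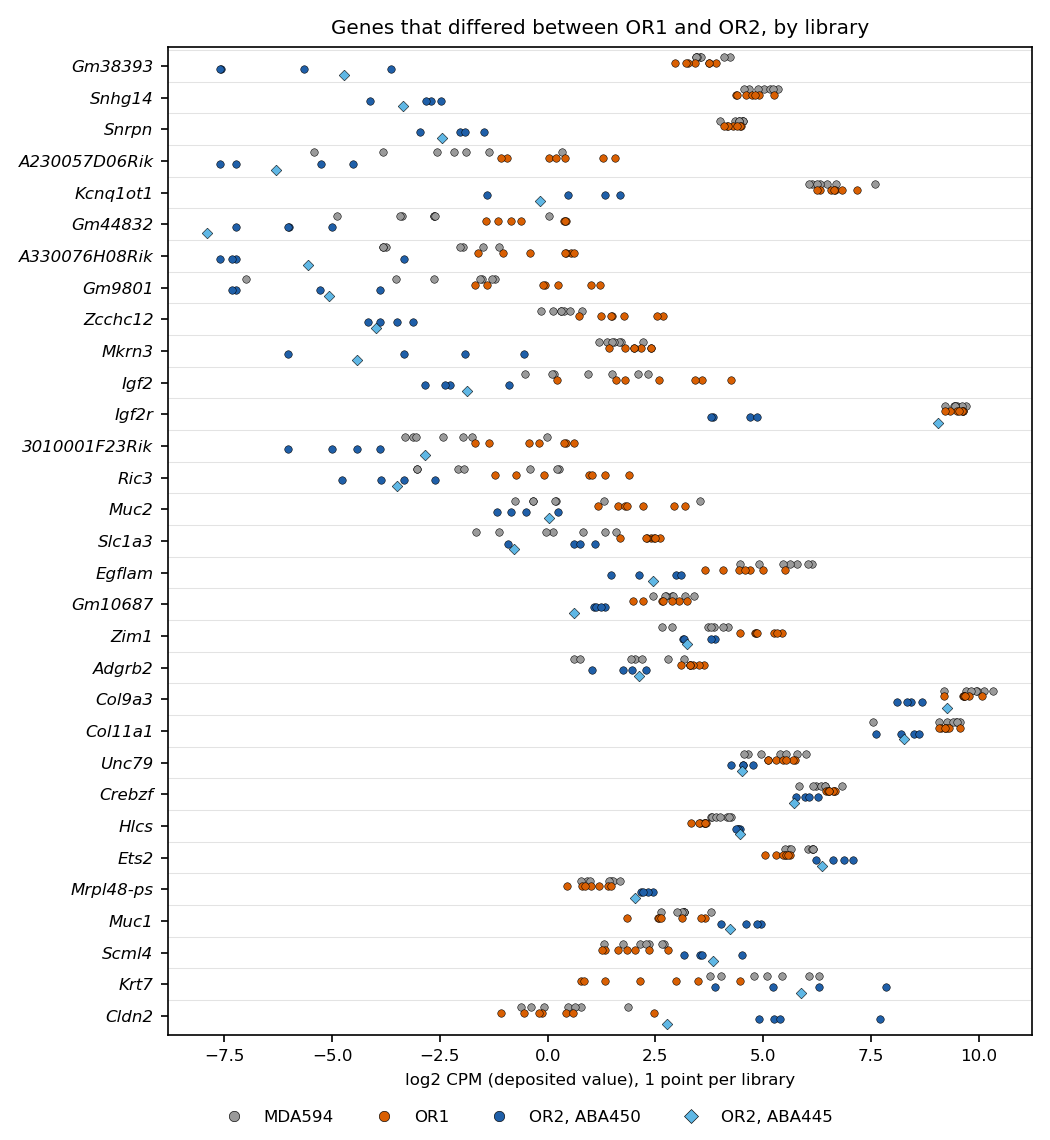
Deposited log2 CPM (horizontal axis) of the 31 genes that differed between OR1 and OR2, 1 point per library, with genes ordered by their difference. In Snhg14, Snrpn and Kcnq1ot1 the 5 OR2 libraries lie at or below 1.68 while the OR1 and MDA594 libraries lie at 4.0 or above, and in Igf2r the diamond (the ABA445 OR2 tumour) lies with OR1.

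MDA594 lay nearer to OR1 in 25 of the 31 genes and nearer to OR2 in 6, by group means. The same count over all tested genes is not given here, and several of the 31 lie together in the Snrpn neighbourhood. Set against MDA594 in a fit of all 19 libraries with a group, OR2 differed in 20 of the 31 and OR1 in 5, while 546 of all tested genes (3.43%) passed for OR2 and 490 (3.08%) for OR1. Both contrasts use the same MDA594 libraries. The 5 genes in which OR1 differed were Krt7, with a difference of -2.89 (SE 0.61, limma adjusted p = 0.0203), Hlcs, with -0.46, and Zim1, Adgrb2 and Slc1a3, higher by 1.29, 1.28 and 2.06. Adgrb2 encodes an adhesion receptor and Slc1a3 a glutamate transporter. In the other genes that separated the lines, OR1 was not past the threshold against MDA594.

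The largest differences among named genes lay in the Snrpn neighbourhood, the mouse counterpart of the human Prader-Willi region. Its paternal copy makes one long transcript that covers Snrpn, a splicing protein gene, and Snhg14, a non-coding host of small nucleolar RNAs. Snrpn (ENSMUSG00000102252.6) was at -2.97 and -2.04 log2 CPM in the untreated and at -2.46, -1.47 and -1.92 in the treated OR2 tumours. In OR1 it ranged from 4.08 to 4.48, with a median of 4.29, and in MDA594 from 4.0 to 4.54. The OR1 and OR2 libraries were widely separated, and OR1 lay inside the MDA594 range. The difference was 6.45 (SE 0.26, limma adjusted p = 3.38e-08). In recovered reads, Snrpn had 655 to 2073 reads per OR1 library and 9 to 34 per OR2 library, and the summed CPM was 86.2 times higher in OR1 (95% exact binomial interval 71.3 to 105.0, counting error only).

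Snhg14 (ENSMUSG00000100826.8) behaved alike. It was at -2.70, -2.47, -3.36, -2.82 and -4.13 in the OR2 libraries and between 4.37 and 5.24 in OR1, with a median of 4.74. The difference was 7.83 (SE 0.29, limma adjusted p = 2.40e-08), and the summed CPM was 229 times higher in OR1 (interval 176 to 305). The predicted gene Gm38393, which overlaps Snrpn and Snhg14 on the same strand and may share reads with them, had 358 to 1095 reads per OR1 library and 0 to 6 per OR2 library. The ABA445 OR2 tumour lay with the other OR2 libraries in all of these genes.

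Farther along in gene order, Mkrn3, an imprinted gene that encodes a ring-finger protein, was at -3.32, -0.54, -4.43, -1.91 and -6.01 in OR2 and between 1.42 and 2.40 in OR1, with a median of 2.01. The difference was 5.32 (SE 0.74, limma adjusted p = 0.0138), and OR1 and OR2 did not overlap. The predicted transcripts A230057D06Rik, A330076H08Rik and Gm9801 between Snrpn and Mkrn3 also differed, with at most 9 reads in any OR2 library and 15 to 224 in OR1. Peg12 was 2.63 higher in OR1 but missed the threshold (limma adjusted p = 0.0890), and Ndn was at -1.57 in OR1 and -0.61 in OR2 on average (limma adjusted p = 0.794). Ube3a, which encodes a ubiquitin ligase and is transcribed from the other strand against Snhg14, was at 7.58 in OR1, 7.45 in OR2 and 7.40 in MDA594. Of the 15 deposited genes from Atp10a to Peg12, 7 were higher in OR1 and none was lower past the threshold, beside 0.195% of all genes.

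The start of Snurf-Snrpn and those of 3 other imprinted transcripts are shown because Snrpn, Kcnq1ot1 and Igf2r were among the largest differences and Airn is the antisense partner of Igf2r. The sequences are RefSeq windows on GRCm38.p6, from 250 bases before to 50 after a start, on the strand of the gene, with each CG in capitals. They lie at chr7:60005150-60005449 (minus strand) for Snurf-Snrpn, chr7:143296498-143296797 (minus) for Kcnq1ot1, chr17:12741061-12741360 (plus) for Airn and chr17:12769657-12769956 (minus) for Igf2r.
Snurf-Snrpn: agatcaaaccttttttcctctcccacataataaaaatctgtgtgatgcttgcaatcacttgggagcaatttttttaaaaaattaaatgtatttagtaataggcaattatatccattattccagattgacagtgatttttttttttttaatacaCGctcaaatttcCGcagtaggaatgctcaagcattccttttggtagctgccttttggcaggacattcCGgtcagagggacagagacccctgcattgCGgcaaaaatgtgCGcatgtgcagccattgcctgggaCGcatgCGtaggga
Kcnq1ot1: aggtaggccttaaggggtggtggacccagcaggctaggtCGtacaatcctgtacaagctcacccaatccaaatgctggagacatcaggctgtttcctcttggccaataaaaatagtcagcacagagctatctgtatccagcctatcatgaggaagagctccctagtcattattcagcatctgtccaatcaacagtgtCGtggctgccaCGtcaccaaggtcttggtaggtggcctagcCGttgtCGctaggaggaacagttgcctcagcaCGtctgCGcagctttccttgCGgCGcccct
Airn: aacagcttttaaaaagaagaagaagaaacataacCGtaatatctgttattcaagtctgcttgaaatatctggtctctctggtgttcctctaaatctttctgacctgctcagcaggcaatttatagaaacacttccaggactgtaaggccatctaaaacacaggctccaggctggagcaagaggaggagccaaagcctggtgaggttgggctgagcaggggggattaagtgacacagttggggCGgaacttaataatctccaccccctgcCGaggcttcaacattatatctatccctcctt
Igf2r: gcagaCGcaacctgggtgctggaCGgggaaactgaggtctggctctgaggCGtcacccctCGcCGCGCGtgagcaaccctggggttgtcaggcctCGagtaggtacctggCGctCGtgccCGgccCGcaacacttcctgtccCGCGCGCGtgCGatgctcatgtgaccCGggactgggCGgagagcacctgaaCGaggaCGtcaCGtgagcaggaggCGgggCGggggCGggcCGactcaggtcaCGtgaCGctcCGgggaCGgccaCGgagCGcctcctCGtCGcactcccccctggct
The windows hold 7, 9, 3 and 34 CG in that order, beside a median of 7 over 32851 mouse promoter windows. As many or more were found in 52.1%, 45.8%, 76.7% and 7.73% of those windows, and 94.6% hold at least 1. The hexamer TGCCGC, bound by the imprint-protecting factor ZFP57 when methylated, was searched on both strands: it occurs 1 time in the Snurf-Snrpn window and in none of the other 3, and 11.6% of all windows hold it. No DNA methylation was measured in these samples.

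Kcnq1ot1 (ENSMUSG00000101609.5), a long non-coding RNA that runs through Kcnq1 on the other strand and silences neighbours on the same chromosome copy, showed the same pattern. It was at 0.47, 1.34, -0.18, 1.68 and -1.40 log2 CPM in OR2 and between 6.25 and 7.18 in OR1, with a median of 6.63. MDA594 ranged from 6.05 to 7.58. The OR2 libraries lay more than 4 log2 units below every other library, the difference was 6.30 (SE 0.46, limma adjusted p = 2.18e-05), and without the ABA445 OR2 tumour it was 6.16 (limma adjusted p = 8.91e-05). Among the genes that this RNA is known to silence, the cell cycle inhibitor Cdkn1c was at 3.17 in OR1, 4.33 in OR2 and 3.43 in MDA594, and Slc22a18 at -0.61, 0.41 and -1.11. Both were lower in OR1 without passing the threshold (limma adjusted p = 0.128 and 0.618). Phlda2 was at 0.14 in OR1 and 0.80 in OR2 (limma adjusted p = 0.71).

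Igf2, a growth factor gene in the same chromosome region, was at -2.27, -0.89, -1.86, -2.37 and -2.84 in OR2. In OR1 it ranged from 0.21 to 4.25, with a median of 2.57, and in MDA594 from -0.52 to 2.32. The difference was 4.72 (SE 0.68, limma adjusted p = 0.0154), or 32.5 times in summed CPM (interval 27.1 to 39.2). H19, the non-coding neighbour that is normally active on the opposite parental copy, was at 7.57 in OR1 and 8.35 in OR2 on average (limma adjusted p = 0.870), and its OR2 libraries ran from 5.04 to 10.28.

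Igf2r (ENSMUSG00000023830.15), a receptor that clears IGF2 and carries enzymes to lysosomes, was low in the ABA450 OR2 tumours and high in the ABA445 OR2 tumour. It was at 3.84 and 4.69 in the untreated OR2 tumours, 4.85 and 3.78 in the treated ABA450 ones and 9.05 in the ABA445 OR2 tumour. OR1 ranged from 9.22 to 9.64, with a median of 9.53, and MDA594 from 9.22 to 9.69. With the ABA445 OR2 tumour the difference was 4.20 (SE 0.74, limma adjusted p = 0.0476). Without it, the difference was 5.19 (SE 0.22, limma adjusted p = 2.07e-07), and the 4 ABA450 OR2 libraries lay more than 4 log2 units below every OR1 library. Igf2r is among the genes that set that tumour apart, so the smaller SE and p largely follow from leaving it out.

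Airn, the non-coding RNA read against Igf2r on the other strand that silences the paternal Igf2r copy, varied widely among the OR1 libraries. In the untreated OR1 tumours it was at 0.49, 0.11 and 2.99, and in the treated ones at 2.86, -0.21, 5.99 and 4.71. OR2 ranged from 4.61 to 5.70 and MDA594 from 5.05 to 5.69. The lowest 3 OR1 libraries and the highest carry the same title number, and the highest shares its host code with the library at -0.21. The predicted gene Gm16574 beside Airn was at -2.37 in OR1, 0.69 in OR2 and 0.65 in MDA594 on average. Neither differed between the lines past the threshold (limma adjusted p = 0.494 for Airn and 0.555 for Gm16574).

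Zim1, an imprinted zinc-finger gene beside Peg3, was at 3.88, 3.13, 3.24, 3.79 and 3.17 in OR2 and between 4.45 and 5.44 in OR1, with a median of 4.85. The difference was 1.5 (SE 0.21, limma adjusted p = 0.0153), and here OR2 lay in the MDA594 range of 2.65 to 4.18. Peg3 itself was 2.40 higher in OR1 (SE 1.24, limma adjusted p = 0.576), and without the ABA445 OR2 tumour it was 0.68 higher (limma adjusted p = 0.0482). Peg3 too is among the genes that set that tumour apart, so the smaller p depends on leaving that tumour out. Of 40 imprinted genes listed, 30 were tested: 7 were higher in OR1 past the threshold and 0 were lower (23.3%, beside 0.195% of all genes). The median of the 30 differences was 0.15, beside 0.01 over all genes. Without the ABA445 OR2 tumour 8 were higher, the 8th being Peg3, beside 1.05% of all genes.

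**Figure D2:**
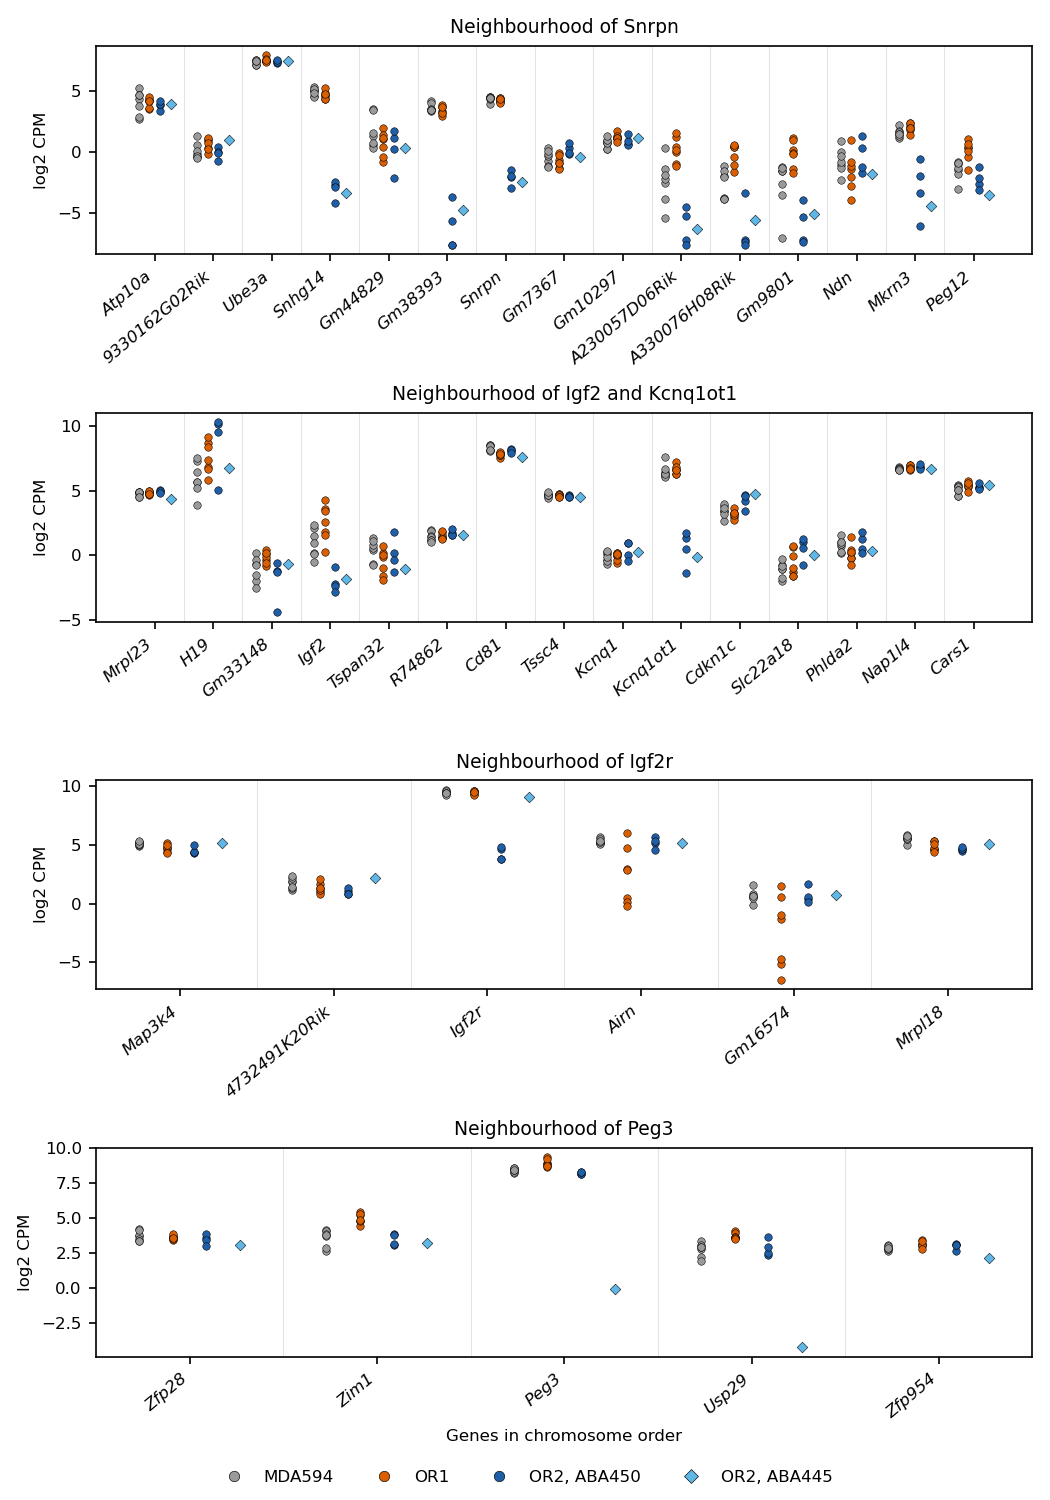
Deposited log2 CPM (vertical axes) of genes in chromosome order around Snrpn, around Igf2 and Kcnq1ot1, around Igf2r and around Peg3, 1 point per library, coloured by line, with OR2 split by library name. OR2 points are low at Snrpn and Kcnq1ot1 in all 5 libraries, at Igf2r in the 4 of ABA450, and at Peg3 (-0.05) only in the ABA445 OR2 tumour.

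Of 13 genes that maintain methylation and imprints, 0 passed the threshold in limma and 1 had an unadjusted p under 0.05. Over all genes the shares were 0.195% and 9.49%. The median difference of the 13 was 0.17 (0.26 without the ABA445 OR2 tumour). Dnmt1, the maintenance methyltransferase, was at 8.0 in OR1 and 7.89 in OR2, Uhrf1, which recruits it, at 6.81 and 7.08, and Zfp57 at 3.20 and 2.94. The largest difference of the 13 was that of the demethylating enzyme Tet2, 0.44 (SE 0.21, limma adjusted p = 0.551).

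Zcchc12, a zinc-finger gene on the X chromosome, was the only gene outside the imprinted neighbourhoods that passed in every alternative run. It was at -3.13, -4.16, -3.98, -3.88 and -3.50 in OR2, or 4 to 8 reads per library, and between 0.72 and 2.68 in OR1, with a median of 1.5. MDA594 ranged from -0.15 to 0.80, so OR1 lay above it in 6 of 7 libraries. The difference was 5.44 (SE 0.45, limma adjusted p = 6.84e-05), or 52.3 times in summed CPM (interval 37.1 to 76.2). Its neighbours in gene order, Il13ra1 and Lonrf3, differed by 0.31 and 0.08 (limma adjusted p = 0.624 and 0.927).

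Among the other genes higher in OR1, Egflam and Col9a3 were lower in OR2 than in MDA594, by the fit of all lines (limma adjusted p = 1.15e-04 and 0.00657), and Col11a1, Muc2 and Ric3 missed the threshold there. Egflam, an extracellular matrix gene, was at 2.12, 2.98, 2.45, 3.10 and 1.47 in OR2 and between 3.64 and 5.51 in OR1, with a median of 4.58, a difference of 2.18 (SE 0.35, limma adjusted p = 0.0253). MDA594 ranged from 4.46 to 6.12. The fibrillar collagen gene Col11a1 was 1.02 higher and the cartilage-type collagen gene Col9a3 1.10 higher in OR1 (limma adjusted p = 0.0330 and 0.0480). Col9a3 in the ABA445 OR2 tumour, 9.25, lay inside the OR1 range of 9.18 to 10.08, and the other OR2 libraries ran from 8.11 to 8.69. Muc2, a secreted mucin gene, was 2.68 higher and Ric3, a chaperone of acetylcholine receptors, 3.96 higher (limma adjusted p = 0.0209 and 0.0241). The remaining genes higher in OR1 were Gm44832, 3010001F23Rik, Gm10687, Unc79 and Crebzf, with differences from 0.61 to 6.08. 3010001F23Rik and Gm10687 overlap Gpr173 and Mcam on the other strand, as Krt7 and Scml4 do Gm671 and Gm34006, and whether counting used strand is not stated in the sources used here.

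Cldn2, which forms a leaky tight-junction pore, had the largest difference in favour of OR2 among the genes past the threshold. It was at 7.71 and 4.90 in untreated and 2.76, 5.24 and 5.39 in treated OR2 tumours. OR1 ranged from -1.09 to 2.47, with a median of -0.12, and MDA594 from -0.63 to 1.87. The lines did not overlap, and the ABA445 OR2 tumour lay closest to OR1. The difference was -4.88 (SE 0.83, limma adjusted p = 0.0369), and -5.55 without the ABA445 OR2 tumour (limma adjusted p = 0.00500).

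Krt7, a keratin of simple glandular epithelium, was at 3.88, 5.23, 5.88, 6.28 and 7.84 in OR2. OR1 ranged from 0.78 to 4.46, with a median of 2.15, and MDA594 from 3.76 to 6.30. The highest OR1 library exceeded the lowest OR2 library, and here OR1 was the line apart from MDA594. The difference was -3.52 (SE 0.56, limma adjusted p = 0.0253). Muc1, a mucin of the luminal cell surface, was at 4.95, 4.85, 4.23, 4.61 and 4.03 in OR2 and between 1.84 and 3.64 in OR1, with a median of 2.62, a difference of -1.64 (SE 0.29, limma adjusted p = 0.0482). Of 20 luminal mammary genes tested, these 2 were the ones past the threshold (10%), beside 0.044% of all genes higher in OR2. Of the 20, 18 were lower in OR1, with a median of -0.40, beside 7601 of all 15926 genes and a median of 0.01. Of 17 basal and myoepithelial genes 0 passed, with a median of -0.06 (-0.13 without the ABA445 OR2 tumour).

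Ets2 and Hlcs lie in 1 run of neighbouring genes. Ets2 was at 7.09, 6.61, 6.35, 6.23 and 6.86 in OR2 and between 5.05 and 5.63 in OR1, a difference of -1.17 (SE 0.17, limma adjusted p = 0.0153). Hlcs was at 4.41, 4.46, 4.46, 4.41 and 4.36 in OR2 and between 3.33 and 3.67 in OR1, a difference of -0.85 (SE 0.11, limma adjusted p = 0.00652). MDA594 values of Hlcs, 3.79 to 4.26, lay between the lines without overlap. Scml4 was -1.78 and the pseudogene Mrpl48-ps -1.21 (limma adjusted p = 0.0483 and 0.0292). A pseudogene can take reads of its parent gene, so its value is uncertain.

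When tested genes were put in chromosome order and read in windows of 30, 173 of 14537 windows (1.19%) had a median difference of at least 0.4 either way, and these merged into 11 runs. Positions were known for 95% of the tested genes. The runs were found from the same values and are a description with no test. For each run and library, the median over its genes of the level minus the MDA594 mean is given next.

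The run from Gart to A630089N07Rik, with 42 genes, holds Hlcs and Ets2, and 36 of its genes were lower in OR1. Its score was -0.52, -0.50, -0.17, -0.37, -0.43, -0.72 and -0.35 in the OR1 libraries and between -0.06 and 0.27 in the 5 OR2 libraries. All OR1 scores lay below all OR2 scores, and the ABA445 OR2 tumour, at 0.12, lay with OR2.

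A chromosome that also carries Igf2r and Airn held 5 runs of 33 to 91 genes, with median differences of -0.37 to -0.41. Members went both ways: of the antigen presentation genes in the run from Zfp870 to H2-Eb2, the class I gene H2-K1 differed by -0.42, and the class II genes H2-Ab1, H2-Eb1 and H2-Aa by 0.97, 0.90 and 0.78, none past the threshold. The OR1 libraries were not alike here: in the run from Togaram2 to Gm1976 the untreated ones were at -0.67, -0.77 and -0.32 and the treated ones at -0.70, -0.74, 0.04 and -0.35. The library at 0.04 is the one with the highest Airn value, 5.99, and the 4 libraries at -0.67 or below have Airn values of 0.49, 0.11, 2.86 and -0.21. OR2 scores in this run ran from -0.45 to 0.14 and overlapped OR1. No gene of these runs passed the threshold in the 12 libraries.

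Another chromosome held 3 runs, from Gm11515 to Osbpl7, from Mrpl45 to Ikzf3 and from Tns4 to Ramp2, in which the 4 ABA450 OR2 libraries scored above the other 8. In the run from Mrpl45 to Ikzf3, which holds Erbb2, the 4 ABA450 OR2 libraries were at 0.54, 0.82, 0.65 and 0.72, and those of OR1 between -0.10 and 0.31. The ABA445 OR2 tumour was at 0.20, inside the OR1 range. In the run from Taf4 to Gm5466, with 44 genes and Col9a3 among them, the 4 ABA450 OR2 libraries lay at -0.75, -0.61, -0.64 and -0.37. OR1 lay between 0.01 and 0.27 and the ABA445 OR2 tumour at 0.63, the highest of all libraries. Over the 12 libraries the median difference of this run was 0.51, and without the ABA445 OR2 tumour it was 0.70. The last run, from Pcdhb4 to Pcdh1, covers the clustered protocadherins, with a median of 0.24 over 45 genes, which was 0.41 without the ABA445 OR2 tumour.

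**Figure D3:**
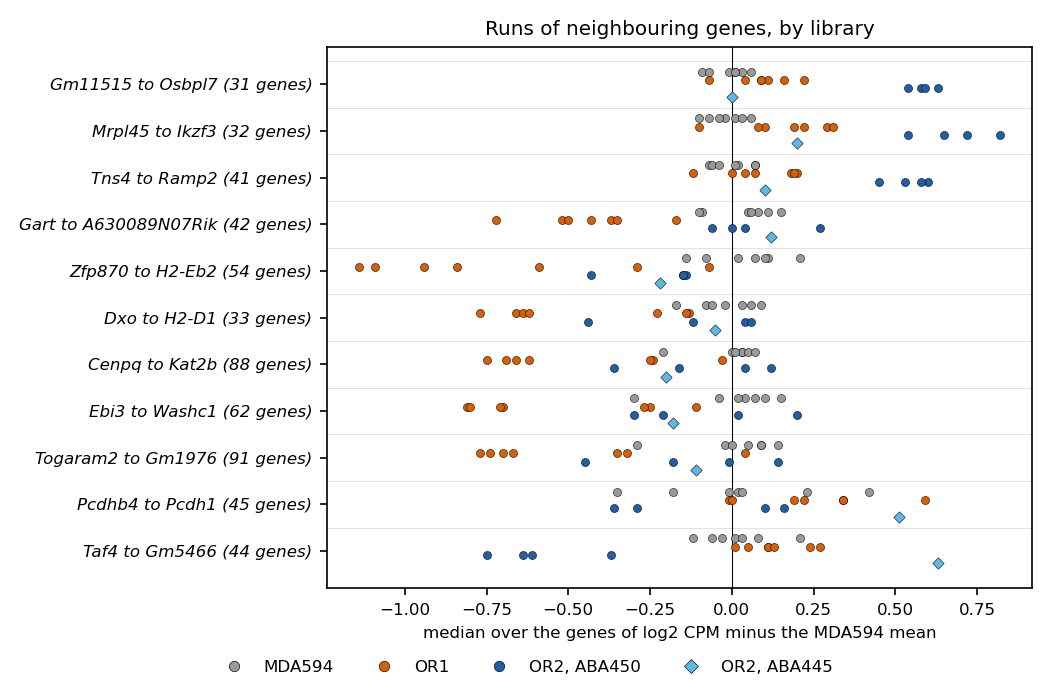
Median over the genes of each run of neighbouring genes of log2 CPM minus the MDA594 mean (horizontal axis), 1 point per library. In the run from Mrpl45 to Ikzf3 and the 2 beside it the 4 ABA450 OR2 libraries lie at 0.45 to 0.82, apart from the ABA445 OR2 tumour at 0.00 to 0.20.

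Leaving the ABA445 OR2 tumour out raised the count to 281 genes (1.76% of those tested), 168 higher in OR1 (1.05%) and 113 higher in OR2 (0.71%), and all 31 genes above were among them. The no-overlap count over all genes rose to 843 (5.29%). In 216 of the 250 added genes the left-out tumour lay nearer to the OR1 mean than to that of the other OR2 libraries, and in 34 it did not, a direction that leaving it out largely fixes. This set describes OR1 against 3 OR2 hosts. With 1 value per host it was 54 and 25 genes.

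The added genes included 3 of 12 neutrophil markers, all lower in OR1, beside 0.71% of all genes lower in OR1 in that fit. S100a9, a calcium-binding protein of neutrophils, ranged from 1.92 to 3.73 in OR1 and from 4.81 to 6.43 in ABA450 OR2, and was at 2.31 in the ABA445 OR2 tumour, a difference without it of -2.51 (SE 0.42, limma adjusted p = 0.0173). The chemokine receptor Cxcr2 was at 0.89 in OR1, 3.73 in ABA450 OR2 and 1.29 in the ABA445 OR2 tumour on average, and Retnlg at -1.66, 1.13 and -2.10. Cxcl1, a ligand of that receptor, ranged from 1.59 to 4.32 in OR1 and from 5.45 to 7.35 in ABA450 OR2, with 4.53 in the ABA445 OR2 tumour, a difference of -3.46 (SE 0.59, limma adjusted p = 0.0188). Its list of neutrophil-attracting chemokines and cytokines went both ways. Over the 12 libraries 7 of 11 tested members were higher in OR1 and 4 lower. The median was 0.35 (-0.23 without the ABA445 OR2 tumour). Another member, Cxcl2, was 2.18 higher in OR1 over the 12 libraries (limma adjusted p = 0.147). In bulk tumour RNA, fewer cells of a type and less RNA per cell cannot be told apart. The neutrophil list as a whole had a mean log2 CPM over its tested members of -0.18 to 1.60 in OR1, 2.14 to 3.69 in ABA450 OR2 and 1.0 in the ABA445 OR2 tumour. MDA594 ranged from 0.48 to 2.95. The highest OR2 scores, 3.69 and 3.12, were those of the untreated tumours, which share 1 host. The treated ABA450 OR2 tumours were at 2.9 and 2.14, and the ABA445 OR2 tumour is also a treated one. The list's median difference over the 12 libraries was -1.69 (-3.31 in untreated and -0.57 in treated tumours). Lower in OR1 were 12 of 12 members, with 0 past the threshold in limma. An unadjusted p under 0.05 was found in 8, beside 9.49% of all genes.

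Macrophage markers added Csf1r and Cd14, 1.28 and 2.03 lower in OR1 without the ABA445 OR2 tumour (limma adjusted p = 0.0256 and 0.0352). These were 2 of 21 markers, beside 0.71% of all genes lower in OR1 in that fit. Csf1r overlapped, with OR1 up to 5.48 and ABA450 OR2 from 5.31. Over all 12 libraries 0 of 21 such markers passed, and the list score, 2.83 to 4.85 in OR1 and 3.73 to 5.87 in OR2, overlapped. The DNA end-processing enzyme gene Tdp2 and the Fanconi anaemia core gene Fanca were 0.73 and 0.79 higher in OR1 than in ABA450 OR2 (limma adjusted p = 0.0167 and 0.0299), with 6.08 and 4.81 in the ABA445 OR2 tumour beside OR1 means of 5.98 and 4.58. They were 1 of 14 end joining genes and 1 of 15 Fanconi anaemia genes, beside 1.05% of all genes higher in OR1 in that fit. Both lists had a median of 0.12 there. Of the run with Col9a3, 21 of 44 genes were among the calls, beside 1.76% of all genes. The run was chosen by the differences of these same libraries, so that share is largely fixed by the choice. The calls of this run included Rtel1, a telomere helicase gene, 1.26 higher in OR1. Stat3, Jup, Rpl19 and Rpl23 of the runs high in ABA450 OR2 were 0.64, 0.83, 0.66 and 0.72 lower in OR1.

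**Figure D4:**
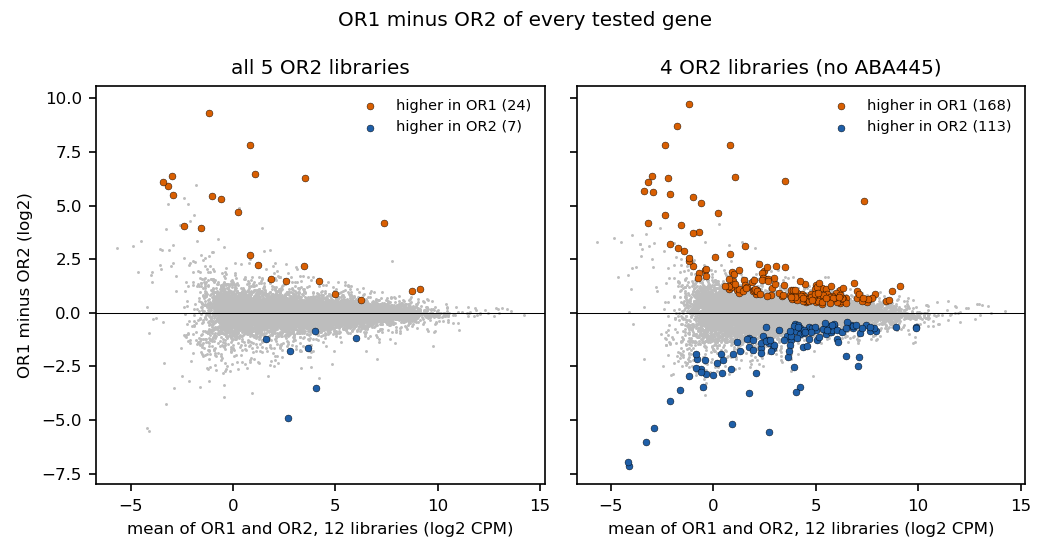
Difference between OR1 and OR2 (log2, vertical axis) against the mean level over the 12 libraries (horizontal axis) of every tested gene, with all 5 OR2 libraries on the left and without the ABA445 OR2 tumour on the right. Coloured points passed the threshold: 24 and 7 on the left, 168 and 113 on the right.

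Of 27 genes of PARP, BRCA, shieldin, drug efflux, Schlafen, cGAS-STING and immune ligand families that the study's subject brings up, 0 passed in limma. An unadjusted p under 0.05 was found in 0 of the 27, and their median difference was 0.11. Over all genes these shares were 0.195% and 9.49%, so 0 past the threshold in a list this short says little. Brca1 was at 6.11 in OR1 and 5.90 in OR2, Brca2 at 6.33 and 6.07, Parp1, the main drug target, at 7.0 and 7.04, Trp53bp1, which blocks end resection, at 5.80 and 5.59, and Abcb1b, a drug efflux pump, at 0.19 and 0.47. Of 7 drug efflux transporters 0 passed in limma over the 12 libraries and 2 had an unadjusted p under 0.05, beside the same shares of all genes. Among untreated tumours Abcc4, an efflux pump of that list, was 3.86 lower in OR1 (SE 0.66, limma adjusted p = 0.0391), and over the 12 libraries it differed by -1.77 (limma adjusted p = 0.388). SEs of the differences of Brca1, Brca2, Parp1, Trp53bp1 and Abcb1b were 0.12 to 0.35, and differences of that size were not detectable here. Of 23 homologous recombination genes 0 passed and 1 had an unadjusted p under 0.05, beside 0.195% and 9.49% of all genes. Their median was 0.12 (0.19 without the ABA445 OR2 tumour).

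Of the 59 lists, the imprinted, luminal and collagen lists held genes past the threshold. In the collagen list it was 1 of 21, Col11a1, higher in OR1, beside 0.151% of all genes. That list had a median of -0.49, which was -1.04 without the ABA445 OR2 tumour. Other lists had members mostly on one side. All 15 interferon-inducible GTPases were higher in OR1, with a median of 0.97 (0.23 in untreated and 1.29 in treated tumours). Of the 15, 7 had an unadjusted p under 0.05, beside 9.49% of all genes. The list scores overlapped, 3.05 to 5.79 in OR1 and 3.0 to 4.63 in OR2. The type I interferon response list went the other way, with 33 of 38 genes lower in OR1. Its median was -0.40 (-1.49 in untreated and 0.21 in treated tumours), with 0 genes at an unadjusted p under 0.05. All 14 fibroblast markers were lower in OR1, with a median of -0.83 (-1.25 without the ABA445 OR2 tumour) and overlapping scores of 2.91 to 5.83 and 3.85 to 6.63. All 11 skeletal muscle markers tested were higher in OR1, with a median of 2.06. The muscle score was 2.27, -0.58 and 0.11 in the untreated and -3.47, -3.50, 2.07 and -2.03 in the treated OR1 tumours and -4.37 to -1.17 in OR2, so it rests on a few OR1 libraries. What these markers contribute to the other differences was not tested.

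**Figure D5:**
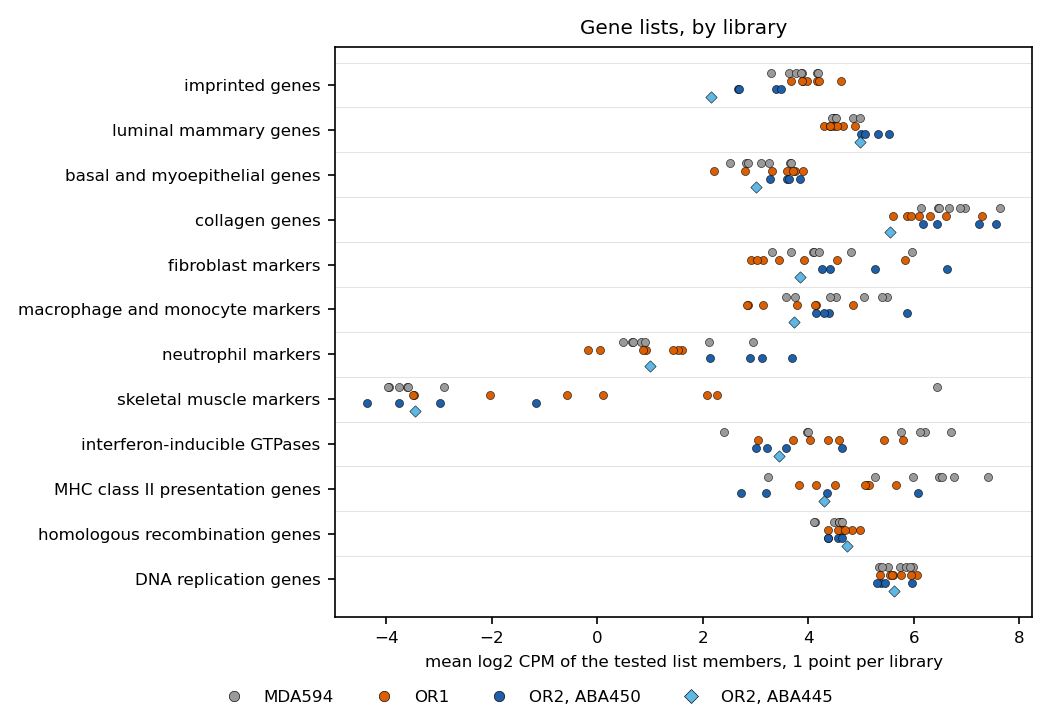
Mean log2 CPM of the tested members of 12 gene lists (horizontal axis), 1 point per library. Neutrophil markers reach 2.14 to 3.69 in ABA450 OR2, at most 1.60 in OR1 and 0.48 to 2.95 in MDA594, while scores of the homologous recombination list overlap.

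No gene passed the threshold for a line difference that depended on treatment: the interaction of line and treatment gave 0 genes with limma (0% of those tested), 0 with limma voom on recovered reads, and 1743 at an unadjusted p under 0.05 (10.9%). The smallest adjusted p in limma, 0.0846, was that of Nlrp10. Each of the 31 genes had the same sign in untreated and in treated tumours. They were called over these same libraries together, which largely fixes the shared sign, so it says little about dependence on treatment. Contrasts within each treatment gave 58 genes in untreated tumours (0.364%), 27 higher in OR1 and 31 lower, and 18 in treated ones (0.113%), 15 higher and 3 lower. Of the 31 genes, 14 and 12 were among them. Genes past the threshold in untreated and not in treated tumours included Cxcl1, 5.12 lower in OR1, Cxcr2, 4.39 lower, and Csf3r, the receptor of a granulocyte growth factor, 3.79 lower, and the milk-gene activator Stat5a, 1.72 lower (limma adjusted p = 0.00501, 0.0391, 0.0391 and 0.0192). In treated tumours Lef1, a Wnt pathway transcription factor, was 1.94 higher and the chemokine gene Cxcl2 3.15 higher in OR1 (limma adjusted p = 0.0319 and 0.0266). The untreated contrast rests on 1 OR2 host, and with 1 value per host it fell to 2 genes.

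These contrasts also depended on single libraries. The interaction count became 27 without the treated OR2 replicate 2, 3 without the untreated OR2 replicate 2 and 2 without the ABA445 OR2 tumour (treated OR2 replicate 1). The untreated count became 18 without the untreated OR1 replicate 1, and 23, 13, 15 and 24 without the treated OR1 replicates 1 to 4. It became 2 and 154 without the untreated OR2 replicates 1 and 2, and 1586, 355 and 872 without the treated OR2 replicates 1 to 3. The treated count became 5, 7, 10 and 5 without the treated OR1 replicates 1 to 4, and 580, 28 and 5 without the treated OR2 replicates 1 to 3.

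The count of 31 depended on single libraries. Higher and lower calls were 7 and 2 without the treated OR1 replicate 2, 12 and 3 without replicate 1, 15 and 3 without replicate 4, and 14 and 2 without the untreated OR2 replicate 2. The 7 of OR2 fell to 4 without the untreated OR1 replicate 2 and to 2 without the treated OR2 replicate 2, and rose to 12 without the treated OR2 replicate 3. Within the library-name series ABA450, where 4 OR1 and 4 OR2 libraries can be compared, 23 and 6 genes passed, 10 of them among the 31. The series ABA445 holds 1 OR2 library and gives no separate test. Snrpn, Snhg14, Gm38393, Kcnq1ot1 and Zcchc12 passed in all 25 alternatives.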

How the data were processed

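Bulk mRNA of 12 OR1 and OR2 tumours, and of 7 MDA594 tumours for reference, was analysed. Per the submitters' processing notes the authors used STAR 2.7.10a, RSEM 1.3.1, limma and GRCm39. The authors deposited log2 CPM per gene, and how genes were filtered is not given in the sources used here. Antilogs took whole-read steps for 100% of values at a tolerance of 0.01 reads. Library totals were 36.83 M to 115.63 M reads in OR1 and OR2 and 48.75 M to 118.44 M in MDA594. Genes above log2 CPM 0 in at least 2 of the 12 libraries were tested: 15926 of 16411. limma 3.58.1 in R 4.3.3 fitted line and treatment, with the host code as a random block (correlation 0.304) and a mean trend. Tests were two-sided with Benjamini-Hochberg adjustment. Interaction and within-treatment contrasts came from 4 group means, and MDA594 contrasts from an additive fit of 19 libraries. The code was tested on simulated data.

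Genes were named by size of difference: up to 12 in each direction past the threshold, without overlap, averaging 1 log2 CPM or more in the higher line, plus list members past the threshold. Genes outside that rule, including neighbours and those of the fit without the ABA445 OR2 tumour, were chosen after their values were seen. The members and 59 lists were chosen with earlier results of these data known. Gene order came from GENCODE vM21. One sample with conflicting treatment labels was not used. Alternatives were other filters, constants, normalisations, blocks and left-out libraries. Not every overlap between genes is reported here.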

Additional observations from a re-analysis of the deposited data

Results flagged for a closer look

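In groups of 4 to 10 samples, a value was marked when its gap to the nearest sample exceeded a set share of the group's range. Among the resistant tumours the only such group was treated OR1, with 4 libraries. Of 90 values looked at, 3 were marked, and chance marks about 1 in 20 groups. Col9a3 was at 10.08 log2 CPM in the treated OR1 replicate 3 and at 9.66 to 9.68 in the other 3 libraries. The MHC class II list had a mean of 5.67 in replicate 2 and of 5.07 to 5.15 in the others. The cholesterol and fatty acid synthesis list had a mean of 7.05 in replicate 3 and of 7.39 to 7.44 in the others. Replicates 2 and 3 share a host code.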

How the results depend on the processing

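No call among the 31 genes reversed in any alternative. The genes higher in OR1, 24 in all, became 14 with log2 of CPM plus 1, 14 with limma voom on recovered reads, 58 with no host block, 8 with 1 value per host, 54 with 1 value per host and ABA450 OR2 libraries only, and 13 without both untreated OR2 libraries. Leaving out 1 library gave 7 to 168. The 7 higher in OR2 became 4 with CPM plus 1, 29 with no block, 0 with 1 value per host, 25 with 1 value per host and ABA450 OR2 libraries only, 31 in a fit of all 19 libraries and 1 without both untreated OR2 libraries, and 2 to 113 when 1 library was left out. The 1 gene higher in OR2 without both untreated OR2 libraries was not among the 7.

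The interaction count of 0 became 0 to 27 when 1 library was left out. The untreated count of 58 became 13 with voom, 189 with no block, 2 with 1 value per host, 25 with 1 value per host and ABA450 OR2 libraries only, 28 with all 19 libraries, 23 with the library-name series as a covariate, 23 within ABA450 and 34 with no mean trend. Leaving out 1 library gave 2 to 1586, the highest without the ABA445 OR2 tumour, where the estimated host correlation of the group-mean fit was -0.22 in place of 0.089. The treated count of 18 became 10 with CPM plus 1, 4 with voom and 8 with 1 value per host, and 5 to 580 when 1 library was left out.

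The alternatives without both untreated OR2 libraries and with ABA450 OR2 libraries only were chosen after seeing the data. Of 1474 recomputed list medians, 24 moved by more than the spread between replicates. No paired analysis was possible because replicate numbers follow accession order and no host code occurs in both lines. The B cell list had no median under the stricter filter, which left too few of its genes, and the untreated and interaction contrasts cannot be had without both untreated OR2 libraries. Where a cause is not given, the cause was not tested. Genes with few reads in OR2 are limited by counting, as their intervals show.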
